A study of Mus musculus with 12 samples.

Results

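The cartilage-like matrix genes examined here, and the transcription factor gene Sox9, are 10 genes of the 20620 in a count table from mouse aortic valves. They were chosen by name, as the rows whose Ensembl identifiers carry the symbols Col2a1, Col9a1, Col9a2, Col9a3, Col11a1, Col11a2, Acan, Matn4, Comp or Sox9 in the authors' deposited table of differential expression. All 10 were found, and all 10 were among the 19346 genes that passed the filter on low counts. RNA was sequenced from valves taken at postnatal day 10, in 12 libraries, each made from a pool of 3 valves. The 3 groups of 4 pools are wildtype, Notch1+/-;Gata5+/- and Notch1+/-;Gata5-/-, so both mutant groups are labelled as carrying 1 altered Notch1 copy and differ in their Gata5 genotype. They are called the Gata5+/- pools and the Gata5-/- pools below. No label states how the alleles were made, or the strain and sex of the mice.

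Collagen II is the main fibril-forming collagen of cartilage. Collagen XI is built into its fibrils and limits their width, and collagen IX sits on their surface. Aggrecan, the protein of Acan, holds water in the tissue through its sulfated sugar chains, while matrilin-4 (Matn4) and COMP (Comp) link collagens to other matrix proteins. SOX9 is the transcription factor that chondrocytes require and that switches on many of these genes. In heart valves, which develop from mesenchymal cushions, Sox9 and several of the same matrix genes are active in the interstitial cells, and aggrecan is part of the proteoglycan-rich layer of the leaflets.

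Library totals ran from 13866604 to 25059653 counts. Notch1 was not lower in the pools labelled Notch1+/- (128 ± 26.4 CPM, counts relative to library size after TMM scaling, in wildtype, 172 ± 20.6 in Gata5+/- and 185 ± 29.5 in Gata5-/- pools, SD, n = 4 each), so these counts do not check that part of the labels. Gata5 had 18 to 56 counts in the wildtype pools, 15 to 112 in the Gata5+/- pools and 0 in all 4 Gata5-/- pools. Gata5-/- replicate 3 had the most genes with no count (6000). Wildtype replicate 2 came next with 3208, near the 1017 to 2908 of the others. Both are called the libraries that stood apart below, although only Gata5-/- replicate 3 was far from the rest. Genes of other cell types were abundant: the summed level of 11 cardiomyocyte genes was 24150 to 57130 CPM over the 12 pools, so each pool held heart muscle RNA beside valve RNA. The valve interstitial and fibroblast genes Postn (1800 to 2430 CPM), Col1a1 (5290 to 9310 CPM) and Vim (1100 to 1710 CPM) were high in all 12 pools. The ranges of these genes are before TMM scaling. In such bulk samples, fewer cells of a type and less RNA per cell cannot be told apart.

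The members are genes that cartilage uses, and the valves held many but not all of the rest of that set. Of 21 further cartilage matrix genes, 18 were tested. Those with counts in all 12 pools include Col27a1, a further fibrillar collagen (85.1 to 137 CPM), Cilp (57.5 to 120 CPM), Susd5 (55.3 to 87.3 CPM), Prg4, the lubricin gene (39.7 to 100 CPM), Hapln1, the link protein of aggrecan (16.8 to 50.5 CPM), Cilp2 (14 to 51.8 CPM) and Epyc (8.31 to 22.8 CPM). By contrast Matn3 (at most 1.36 CPM, 0 in 3 pools), Cnmd, the gene of the angiogenesis inhibitor chondromodulin (at most 2.34 CPM, 0 in 2 pools), and Chadl (at most 4.37 CPM, 0 in 3 pools) were near the limit of detection, with Mia and Clec3a also at 0 in some pools. Matn1, Snorc and Scrg1 were not found by symbol among the genes counted. Col10a1, the collagen of hypertrophic chondrocytes, lay between 1.73 and 19.8 CPM, and Mmp13 did not pass the filter, with 0 counts in 7 of 12 pools. The matrix genes Fmod (134 to 318 CPM), Mgp (211 to 365 CPM) and Prelp (51.3 to 151 CPM), which many connective tissues express, were present in all 12 pools.

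To set genes side by side, CPM were divided by the joined length of all annotated exons of each gene. This length (9243 bases for Col2a1, 7469 for Acan) can exceed that of a single transcript, so the order of genes depends on the annotation. On this scale Acan was the highest member in the wildtype valves, at 25.1 ± 8 CPM per kb (SD, n = 4). Col9a1 (14.1 ± 3.46), Comp (13.2 ± 3.05) and Col11a2 (12.5 ± 0.674) came next, and these 3 did not differ beyond their spread. Col2a1 (8.53 ± 3.01), Col11a1 (6.88 ± 0.858) and Matn4 (6.66 ± 1.56) followed, again within each other's spread. Sox9 (4 ± 0.785), Col9a3 (3.84 ± 0.551) and Col9a2 (3.3 ± 1.68) were the lowest and could not be ordered. On this scale Col2a1, the gene of the main collagen of cartilage, was not the highest in the wildtype valve. In the Gata5-/- pools the mean order was Acan (34.1 ± 6.19 CPM per kb), Comp (25.8 ± 14.1), Col2a1 (22.1 ± 14), Col9a1 (20.8 ± 8.6), Col11a2 (14.2 ± 7.84), Matn4 (13.8 ± 6.8) and Col11a1 (11.1 ± 4.28), but the neighbours in it overlapped widely, Acan and Comp included.

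No member passed the test in any of the 3 comparisons of genotypes, although all 9 matrix genes had higher mean CPM in the Gata5-/- pools than in wildtype, and 8 of the 9 in the Gata5+/- pools. In edgeR's quasi-likelihood test with Benjamini-Hochberg adjustment over all genes tested, 0 of 10 members were called at an adjusted p under 0.05 in the Gata5-/- pools against wildtype, where 0.0258% of all genes tested were called (5 of 19346, all lower). At an unadjusted p under 0.05, 5 members were higher (Col2a1, Col11a1, Acan, Matn4 and Comp) and none was lower. Of all genes tested, 5.4% passed that threshold in either direction and 2.04% were higher. The 5 rested on single pools and on the model: it was 0 without Gata5-/- replicate 1, 1 without wildtype replicate 1, 3 or 4, 3 without Gata5-/- replicate 2, 6 without its replicate 4, 4 without the libraries that stood apart, and 1 (Acan) by limma-voom. DESeq2 called 0 of 10 members as well, and all 10 carry the entry "Not significant" in the authors' deposited table. Its log2 fold changes match the DESeq2 fit of this comparison, so these are not separate results. The thresholds behind that entry may differ from the one used here. The median log2 fold change of the 10 members was 0.62, beside -0.03 for all genes tested, and 9 of 10 were above 0, beside 46.1% of all genes. Without the libraries that stood apart the median was 0.82, and without Gata5-/- replicate 1 it was 0.37. The former leaves out wildtype replicate 2, the wildtype pool with the highest mean log2 CPM of the matrix genes (5.92). The p-values measure the spread between pools of valves.

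**Figure D1:**
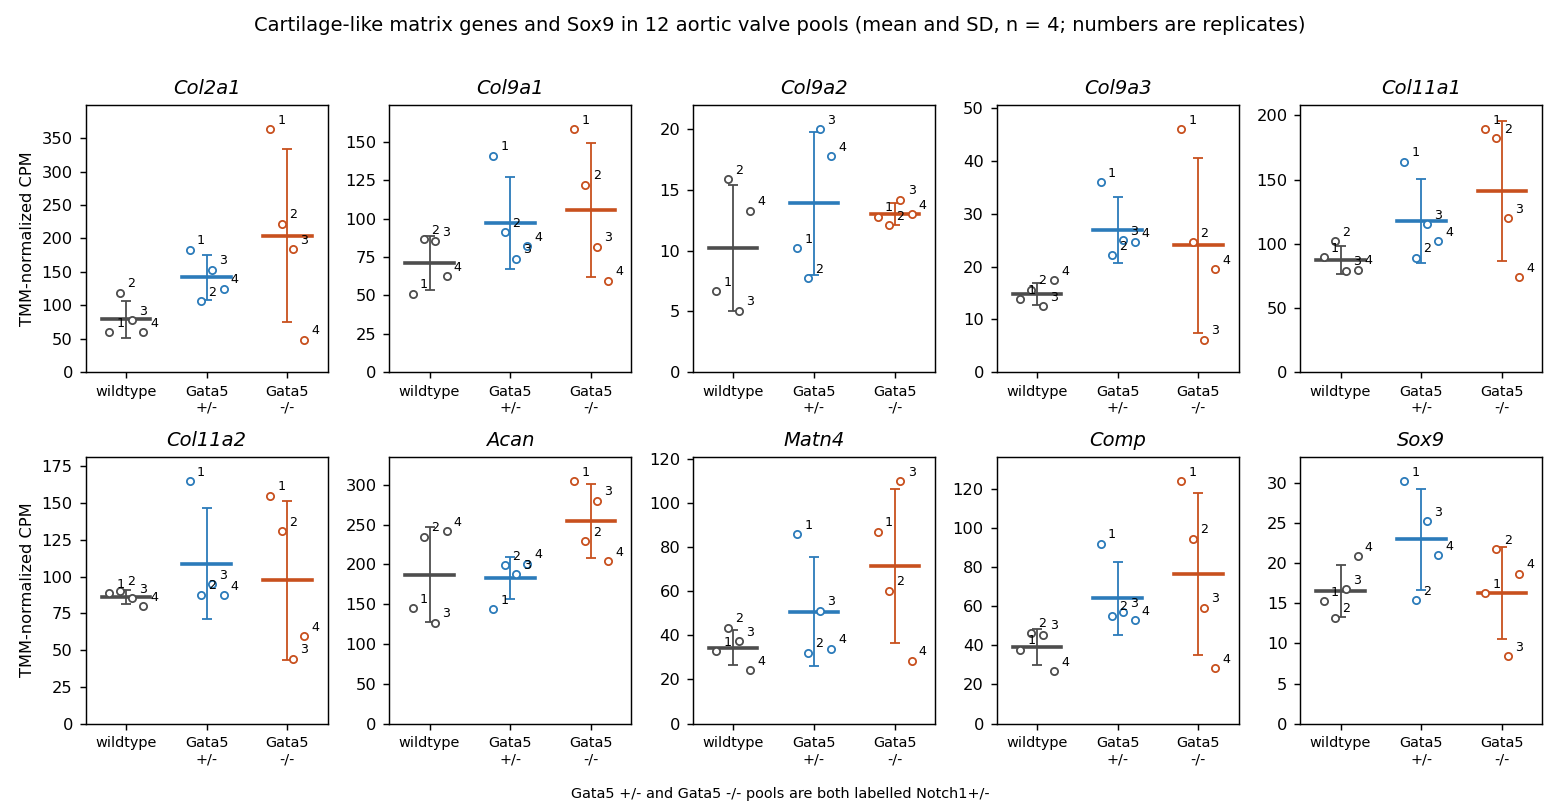
TMM-scaled CPM of each member on the y axis in the 4 pools of each genotype, with the replicate numbers beside the points and the mean and SD of each group. For most matrix genes the Gata5-/- pools spread further than the wildtype pools, as for Col2a1 (48.1 to 363 CPM against 59.6 to 119 CPM).

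Sox9 (ENSMUSG00000000567), the regulator, had the log2 fold change nearest to 0 between the Gata5-/- pools and wildtype. It stood at 15.3, 13.2, 16.8 and 20.9 CPM in wildtype replicates 1 to 4, at 30.3, 15.4, 25.3 and 21 CPM in the Gata5+/- pools, and at 16.3, 21.8, 8.4 and 18.7 CPM in the Gata5-/- pools. The highest values were in Gata5+/- replicates 1 and 3 and the lowest in Gata5-/- replicate 3, and all 3 groups overlapped. The log2 fold change of the Gata5-/- pools against wildtype was -0.02 (SE 0.3, adjusted p = 1 in edgeR's quasi-likelihood test, exact permutation p = 0.886), and it was 0.2 without Gata5-/- replicate 3. With DESeq2 or with RLE normalization it was 0. The Gata5+/- pools lay 0.48 above wildtype on that scale (SE 0.3, adjusted p = 1 in edgeR's test), and the Gata5-/- pools were 0.49 below the Gata5+/- pools (log2 fold change -0.49, SE 0.3, adjusted p = 1). The mean Sox9 level in the Gata5-/- pools, where Col2a1 had its highest mean, was 16.3 ± 5.74 CPM, beside 16.5 ± 3.24 CPM in wildtype (SD, n = 4 each).

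Sox5 and Sox6 encode the partners that act with SOX9 at cartilage genes. Among 15 regulators of cartilage formation, 13 were tested and 0 were called in edgeR's test in any comparison, with 0 at an unadjusted p under 0.05 in the Gata5-/- pools against wildtype. Sox5 (26.7 CPM in wildtype and 27.2 CPM in Gata5-/- pools, log2 fold change 0.02) and Sox6 (50.6 and 54.3 CPM, 0.10) had nearly equal means. Runx1, a DNA-binding factor of blood stem cells and early chondrocytes, had a log2 fold change of 0.56 (adjusted p = 1) and Foxc2, a forkhead factor of valves and vessels, one of -0.46, and neither passed.

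Col2a1 (ENSMUSG00000022483), the chain of collagen II, had the widest spread in CPM of any member. It stood at 59.6, 119, 77.2 and 60 CPM in wildtype replicates 1 to 4, at 183, 106, 153 and 125 CPM in the Gata5+/- pools and at 363, 222, 184 and 48.1 CPM in the Gata5-/- pools. Gata5-/- replicates 1 to 3 and Gata5+/- replicates 1, 3 and 4 were above the highest wildtype pool, whereas Gata5-/- replicate 4 was below all 4 wildtype pools. The group means were 78.9 ± 27.8, 142 ± 33.4 and 204 ± 130 CPM (SD, n = 4 each). The Gata5-/- pools were higher than wildtype by 1.37 on the log2 scale (SE 0.51, adjusted p = 0.86 in edgeR's quasi-likelihood test, exact permutation p = 0.171), with 1.7 without Gata5-/- replicate 4 and 0.96 without replicate 1. For the Gata5+/- pools against wildtype the value was 0.84 (SE 0.51, adjusted p = 1, exact permutation p = 0.0571), and between the mutant groups it was 0.53 (SE 0.51, adjusted p = 1).

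Col11a1 (ENSMUSG00000027966) and Col11a2 (ENSMUSG00000024330) encode different chains of collagen XI. Col11a1 was at 89.5, 102, 78.9 and 79.7 CPM in wildtype, 164, 89.2, 115 and 102 CPM in the Gata5+/- pools and 189, 182, 120 and 73.7 CPM in the Gata5-/- pools. Again Gata5-/- replicates 1 to 3 were above all wildtype pools and replicate 4 was below them. Its log2 fold change against wildtype was 0.69 (SE 0.26, adjusted p = 0.84 in edgeR's quasi-likelihood test, exact permutation p = 0.171), the smallest unadjusted p of the 10 members (0.0199). Col11a2 had a different pattern, at 88.5, 90.3, 85.4 and 79.7 CPM in wildtype, 165, 87.6, 94.9 and 87.4 CPM in the Gata5+/- pools and 155, 131, 44.1 and 59.6 CPM in the Gata5-/- pools. The wildtype pools were tightly grouped (86 ± 4.63 CPM), Gata5-/- replicates 1 and 2 were above them and replicates 3 and 4 below. The log2 fold change was 0.18 (SE 0.37, adjusted p = 1 in edgeR's test), and it turned to -0.12 without Gata5-/- replicate 1.

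The ratio of the collagen XI chains was taken per kilobase of joined exons. Its size depends on the annotated lengths, while comparisons between pools do not. The ratio of Col11a1 to Col11a2 was between 0.498 and 0.611 (median 0.542) in the wildtype pools, between 0.537 and 0.656 (median 0.59) in the Gata5+/- pools and between 0.658 and 1.47 (median 0.708) in the Gata5-/- pools. The lowest Gata5-/- ratio (0.658) was barely above the highest of the Gata5+/- pools (0.656), so these groups nearly touched. How many other pairs of genes would show such a gap was not examined. This ratio was singled out after its values were seen, and no test was made of it. The highest, 1.47, belonged to Gata5-/- replicate 3, a library that stood apart. Between Col2a1 and Col11a1 the ratio was 0.918 to 1.6 in wildtype, 1.53 to 1.82 in the Gata5+/- pools and 0.899 to 2.65 in the Gata5-/- pools, so these groups overlapped.

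Collagen IX is assembled from 1 chain of each of its 3 genes. Col9a1 (ENSMUSG00000026147) was at 50.9, 86.5, 85.3 and 62.4 CPM in wildtype, 141, 91.1, 73.9 and 82.1 CPM in the Gata5+/- pools and 158, 122, 81.7 and 59.6 CPM in the Gata5-/- pools. Each mutant group had 2 pools above the wildtype range, and the log2 fold change of the Gata5-/- pools was 0.56 (SE 0.3, adjusted p = 1 in edgeR's quasi-likelihood test). Col9a3 (ENSMUSG00000027570) was at 13.8, 15.6, 12.5 and 17.4 CPM in wildtype, 36, 22.1, 25 and 24.6 CPM in the Gata5+/- pools and 46, 24.6, 6.13 and 19.5 CPM in the Gata5-/- pools. All 4 Gata5+/- pools were above all 4 wildtype pools, while Gata5-/- replicate 3 was the lowest pool of all 12. The log2 fold change of the Gata5+/- pools was 0.86 (SE 0.4, adjusted p = 1 in edgeR's test, exact permutation p = 0.0286, the smallest that 4 against 4 pools can give). For the Gata5-/- pools it was 0.7 (SE 0.4, adjusted p = 1), 0.19 without replicate 1 and 1.05 without the libraries that stood apart.

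Col9a2 (ENSMUSG00000028626) had the lowest wildtype mean per length, but not beyond the spread of Sox9 and Col9a3. It was at 6.65, 15.9, 5.07 and 13.3 CPM in wildtype, 10.2, 7.73, 20 and 17.8 CPM in the Gata5+/- pools and 12.8, 12.1, 14.2 and 13 CPM in the Gata5-/- pools. It was the member with the narrowest range in the Gata5-/- pools, all of which fell inside the wildtype range. Relative to wildtype the Gata5-/- pools differed by 0.35 (SE 0.38) and the Gata5+/- pools by 0.44 (SE 0.38) on the log2 scale, with adjusted p = 1 for both in edgeR's quasi-likelihood test. Per kilobase of joined exons, Col9a1 exceeded Col9a2 by 2.86 to 10.3 times in the wildtype pools and Col9a3 by 2.73 to 5.18 times. The size of these ratios depends on the annotated lengths. In the Gata5-/- pools these ratios were 2.8 to 7.52 and 2.32 to 10.1. Exons of Col9a3 overlap those of Tcfl5 on the opposite strand over 234 bases in GENCODE M21, and since the strand setting of the counting is not given, some Col9a3 reads may belong to that gene.

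Acan (ENSMUSG00000030607) was at 145, 235, 127 and 242 CPM in wildtype, 144, 199, 188 and 201 CPM in the Gata5+/- pools and 305, 229, 280 and 204 CPM in the Gata5-/- pools. The Gata5-/- pools were all above the Gata5+/- pools, while the wildtype pools formed a low pair (replicates 1 and 3) and a high pair (replicates 2 and 4) that spanned most of this range. Acan was the 1 member of 10 whose Gata5-/- pools were higher than the Gata5+/- pools without overlap, where 0.703% of all genes tested were (136 of 19346). That difference was 0.48 on the log2 scale (SE 0.19, adjusted p = 1 in edgeR's quasi-likelihood test, exact permutation p = 0.0286), and against wildtype it was 0.44 (SE 0.19, adjusted p = 0.872, exact permutation p = 0.171). The Gata5+/- pools against wildtype had a value of -0.03 (SE 0.19), whose sign turned with single pools left out. Acan was the 1 matrix gene whose mean was not higher in the Gata5+/- pools than in wildtype (183 ± 26.8 and 187 ± 59.7 CPM).

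The enzymes that build and cut the sugar chains and core of aggrecan did not pass either. Of 17 genes of chondroitin sulfate synthesis, 16 were tested and 0 called in edgeR's test, with 4 log2 fold changes above 0 and 12 below in the Gata5-/- pools against wildtype (median -0.15, beside -0.03 for all genes tested, and 1 at an unadjusted p under 0.05). The chain-extending enzyme gene Chsy1 had 0.28 (adjusted p = 0.893) and the sulfotransferase gene Chst3 had -0.55 (adjusted p = 0.986). Of 12 genes of aggrecan and COMP cleavage, 11 were tested and 0 called, with 4 above 0 and 7 below. Adamts5, a main aggrecan-cutting protease, had a log2 fold change of -0.31 (101 CPM in wildtype and 81.5 CPM in Gata5-/- pools, adjusted p = 0.909 in edgeR's test).

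Matn4 (ENSMUSG00000016995) and Comp (ENSMUSG00000031849), the linking proteins, resembled Col2a1. Matn4 was at 32.7, 43.4, 37.4 and 24.3 CPM in wildtype, 85.8, 32.2, 51.1 and 33.9 CPM in the Gata5+/- pools and 87, 60.2, 110 and 28.5 CPM in the Gata5-/- pools. Gata5-/- replicates 1 to 3 were above all wildtype pools and replicate 4 was within their range. The log2 fold change was 1.05 (SE 0.42, adjusted p = 0.868 in edgeR's quasi-likelihood test, exact permutation p = 0.114), and 0.78 without Gata5-/- replicate 3, the library with the highest Matn4 and the most genes at 0. Exons of Matn4 overlap those of Rbpjl on the opposite strand over 149 bases, and Rbpjl had 14 to 92 counts per library against 486 to 1857 for Matn4, so shared reads cannot be told apart but were limited to that stretch.

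Comp was at 37.8, 46.4, 45.4 and 26.8 CPM in wildtype, 92, 55.1, 56.8 and 52.7 CPM in the Gata5+/- pools and 124, 94.4, 59.2 and 28.4 CPM in the Gata5-/- pools. All 4 Gata5+/- pools were above the wildtype pools, as were 3 of 4 Gata5-/- pools. The Gata5-/- pools exceeded wildtype by 0.97 on the log2 scale (SE 0.39, adjusted p = 0.866 in edgeR's quasi-likelihood test, exact permutation p = 0.2). The Gata5+/- pools exceeded it by 0.71 (SE 0.39, adjusted p = 1 in edgeR's test, exact permutation p = 0.0286). Over every fit tried, the adjusted p of the members in the Gata5-/- pools against wildtype ranged from 0.0791 to 1, and the low end was reached by Col11a1 and Comp when Gata5-/- replicate 4 was left out.

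**Figure D2:**
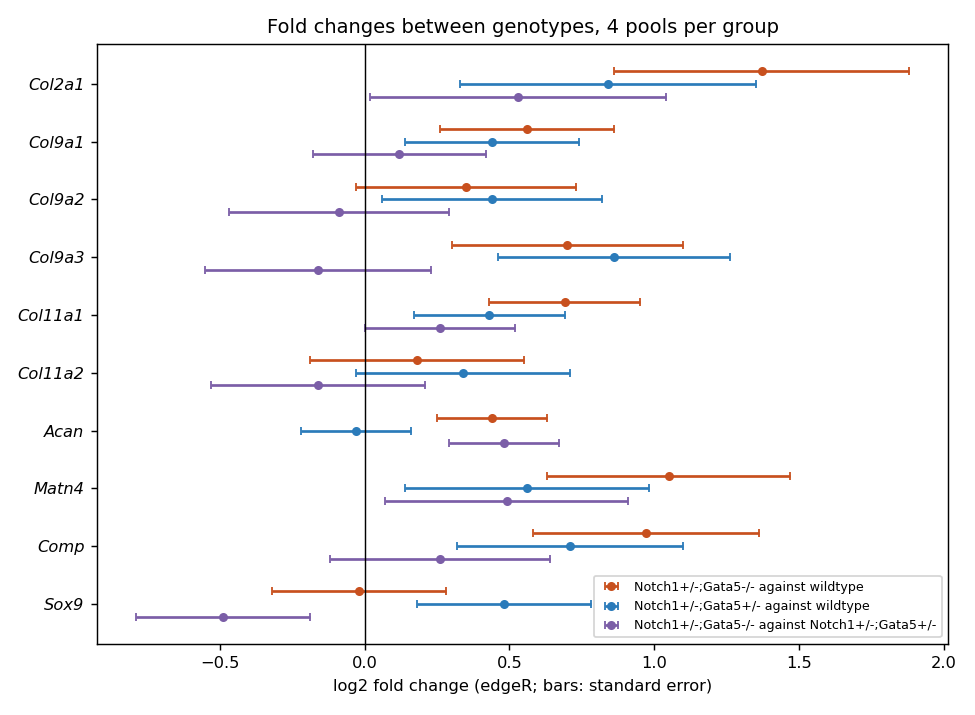
Log2 fold changes from edgeR on the x axis, with their standard errors as bars, for each member in the 3 comparisons of genotypes (4 pools per group). Against wildtype 9 of 10 point estimates lie above 0 for each mutant group, from 0.18 to 1.37 for the Gata5-/- pools, and none of them passed the adjusted threshold.

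In the Gata5+/- pools against wildtype, 0 of 10 members were called, as were 0 of 19346 genes (0% of all genes tested). At an unadjusted p under 0.05, 1 member, Col9a3, was higher, where 1.25% of all genes passed and 0.806% were higher. That count was 0 without any 1 of the wildtype pools, or without Gata5+/- replicate 1, 3 or 4, and 4 (Col2a1, Col9a3, Col11a1 and Comp) when only the 8 libraries compared were fitted. Groups did not overlap for 2 of 10 members, Col9a3 and Comp, both higher, where 1.32% of all genes were higher and 0.915% lower without overlap. In the Gata5-/- pools against wildtype 0 of 10 members were higher without overlap, where 0.936% of all genes were, and none was lower, where 1.99% were. Gata5-/- replicate 4 lay within or below the wildtype range for 9 of the 10. The median log2 fold change of the members in the Gata5+/- pools was 0.46, beside 0 for all genes tested, and 0.27 without Gata5+/- replicate 1. Both comparisons use the same 4 wildtype pools.

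Between the mutant groups, which differ in the label of the second Gata5 copy, 0 of 10 members were called (0% of all genes tested), and 1, Acan, was higher at an unadjusted p under 0.05, where 3.18% of all genes passed and 1.1% were higher. Acan fell short of that threshold without Gata5-/- replicate 1 or 3 or Gata5+/- replicate 1, and without Gata5-/- replicate 4 the count rose to 4. No member was lower without overlap, where 2.03% of all genes were. The median was 0.19, beside -0.04 for all genes, with 6 of 10 above 0. It was -0.07 without Gata5-/- replicate 1 and 0.39 without replicate 4, so its sign rested on single pools. Col9a3 (-0.16, SE 0.39) and Col11a2 (-0.16, SE 0.37) were on the lower side with Sox9.

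Some of the matrix genes ranked the pools alike. Of 36 pairs of matrix members 13 had a Spearman rho over 0.6, with a range from -0.2 to 0.95 over all pairs. The mean log2 CPM of the 9 matrix members was 5.39, 5.92, 5.46 and 5.52 in wildtype, 6.45, 5.78, 6.1 and 5.97 in the Gata5+/- pools and 6.84, 6.42, 5.95 and 5.44 in the Gata5-/- pools. Gata5-/- replicate 1 was first, Gata5+/- replicate 1 second and Gata5-/- replicate 4 second lowest, below 3 of the wildtype pools. In Gata5-/- replicates 1 to 4, 8, 7, 5 and 1 of the 9 matrix genes were above the highest wildtype pool. As a share of all counts the 9 genes made up 0.06 ± 0.0114% in wildtype, 0.0806 ± 0.0188% in the Gata5+/- pools and 0.102 ± 0.0412% in the Gata5-/- pools (SD, n = 4).

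**Figure D3:**
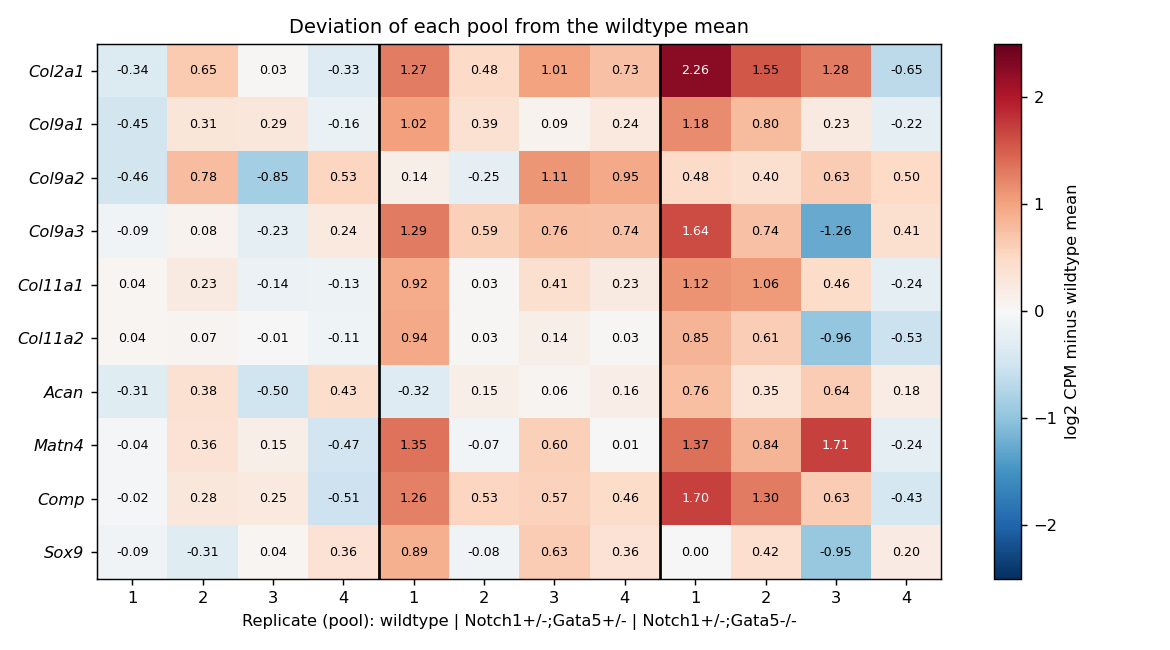
Each cell gives the log2 CPM of a member in 1 pool minus its wildtype mean (rows, members; columns, the 12 pools by genotype; red higher, blue lower). Gata5-/- replicate 4 lies between -0.65 (Col2a1) and 0.5 (Col9a2), and Gata5-/- replicate 3 is the lowest of the 12 pools for Col9a3, Col11a2 and Sox9.

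The members varied more within groups than other genes of like level. The within-group SD of log2 CPM was 0.79 for Col2a1, above that of 99.8% of the 1209 genes of like mean level, whose median SD was 0.2. It exceeded that of 99% of such genes for Col11a2 and Matn4, 98.9% for Comp and 97.3% for Col9a1. Sox9 (SD 0.45, above 63% of genes) and Col9a2 (0.59, above 68.6%) were closer to other genes. In the Gata5-/- pools the highest exceeded the lowest by 7.55 times for Col2a1, 7.51 times for Col9a3 and 4.38 times for Comp.

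**Figure D4:**
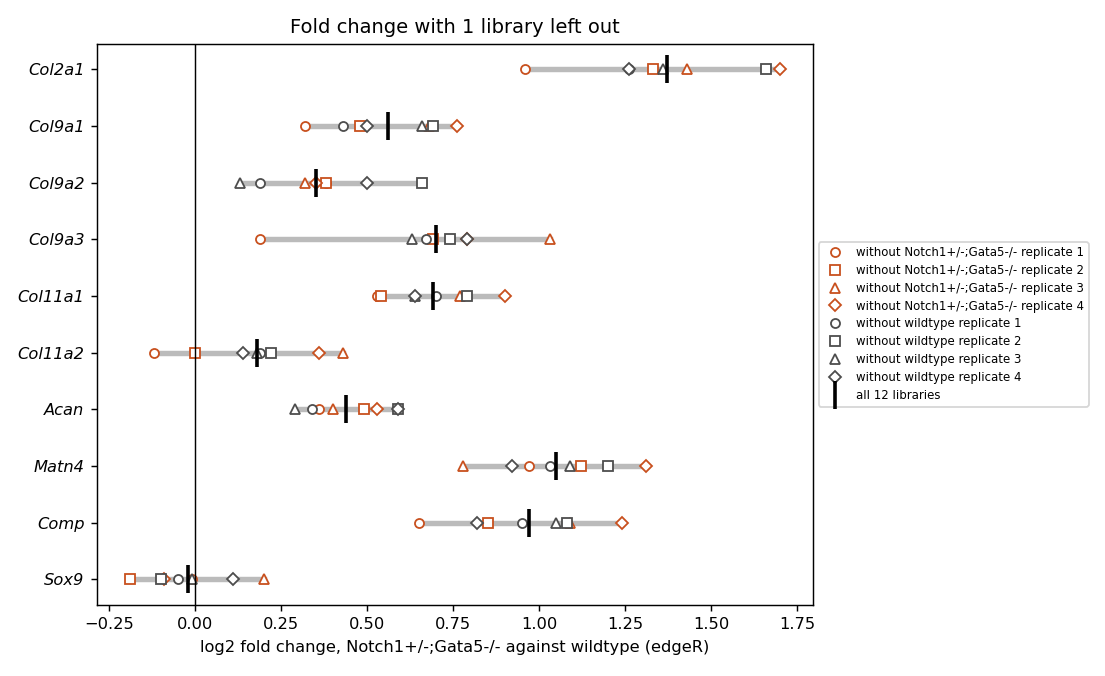
Log2 fold change of each member, Gata5-/- pools against wildtype, with all 12 libraries (black bar) and with each wildtype or Gata5-/- library left out in turn (symbols; x axis from edgeR). For Col2a1 the values run from 0.96 to 1.7, and for Col11a2 and Sox9 they cross 0.

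Across the 12 pools some members varied together and others did not. Col2a1 and Comp had a Pearson r of 0.95 on log2 CPM, and 0.92 after each group's mean was removed, with 0.93 (0.9) for Col2a1 and Col11a1 and 0.85 (0.8) for Col2a1 and Matn4. Col9a3 and Col11a2 were close to each other (0.84, centred 0.86), and their values with Sox9 were 0.73 and 0.65. Col11a2 was no closer to Sox9 (centred 0.62) than to Col9a1 (0.71, centred 0.78), Comp (0.68, centred 0.78) or Col11a1 (0.67, centred 0.81), so these are not separate sets. Acan and Col9a2 were weakly related to most other matrix genes and had r = 0.63 with each other. Col2a1 and Sox9 had r = 0.01 (centred -0.06), Comp and Sox9 0.14 (centred 0.08), and Acan and Sox9 -0.41. With 12 pools, r near 0 does not show that genes are unrelated. These values describe 12 pools that share library, depth and dissection, and 1 library, Gata5-/- replicate 3, stood out for Col9a3, Col11a2 and Sox9: relative to the other 3 Gata5-/- pools it was at -2.19 for Col9a3, -1.27 for Col11a2 and -1.16 for Sox9 on the log2 scale, and at 0.23 for Col2a1 and 1.05 for Matn4. Across 10181 genes, which are not independent, the deviations of Gata5-/- replicate 3 showed little relation to transcript GC content (Spearman rho 0.04). Several other pools showed more, with opposite signs inside a group. The rho was -0.16 and -0.18 in wildtype replicates 1 and 3, and 0.15 and 0.12 in replicates 2 and 4. In the Gata5+/- pools it was -0.2 and -0.13 in replicates 1 and 2, and 0.15 and 0.18 in replicates 3 and 4. In Gata5-/- replicate 4 it was -0.13. The part of GC content in the members' levels was not tested.

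**Figure D5:**
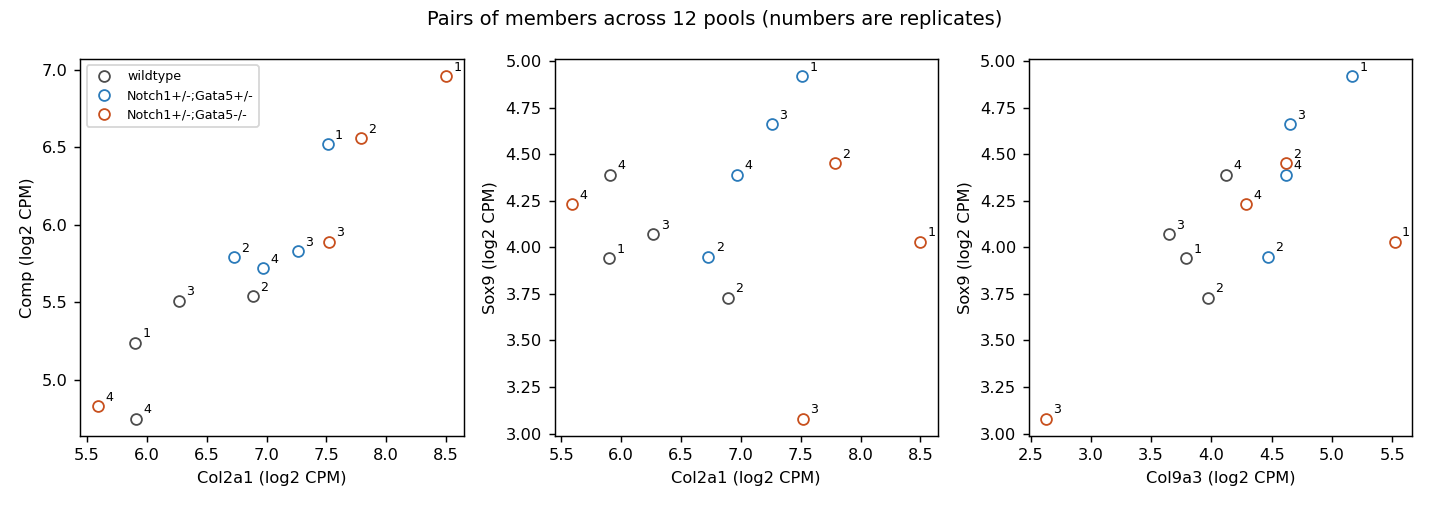
Log2 CPM of 3 pairs of members in the 12 pools, with replicate numbers beside the points and colours for genotype. Col2a1 and Comp (left) lie along a line (r = 0.95), Col2a1 and Sox9 (middle) do not (r = 0.01), and for Col9a3 and Sox9 (right, r = 0.73) Gata5-/- replicate 3 is the lowest point on both axes.

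The non-member genes closest in pattern to the matrix mean, among 12030 compared, were Drp2 (r = 0.94), Abi3bp (0.94), Fmod (0.93), Col8a2 (0.91), Bmper (0.9) and Unc5b (0.9). Abi3bp and Fmod encode matrix proteins, Col8a2 a short-chain collagen and Bmper a secreted binder of BMPs. Fmod stood at 318, 238, 141 and 134 CPM in the Gata5-/- pools and at 135, 180, 157 and 143 CPM in wildtype, and its groups differed by 0.43 on the log2 scale (SE 0.26, adjusted p = 1 in edgeR's quasi-likelihood test). Those closest to Sox9 were Cmas (r = 0.93), Larp1, Tbc1d2b, Pura and Bcl2l2 (0.89 each) and Zfhx4 (0.88). Here Bcl2l2 is the row ENSMUSG00000089682, 1 of 2 rows that carry this symbol. Cmas, which activates sialic acid, was lowest in Gata5-/- replicate 3 (40.1 CPM) and highest in Gata5+/- replicate 1 (68.1 CPM), as Sox9 was. The members themselves were left out of both searches.

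Marker genes of other cells were summed in each pool. The summed level of 6 valve interstitial and fibroblast genes was 9675 to 12670 CPM in wildtype, 10940 to 13000 CPM in the Gata5+/- pools and 11030 to 13550 CPM in the Gata5-/- pools, with r = 0.8 to the matrix mean over the 12 pools (centred 0.74), and 0 of the 6 were called. Col1a1 made up most of this sum, with group means of 6500, 6960 and 7470 CPM, so r mainly describes that gene. In the Gata5-/- pools against wildtype 4 of the 6 log2 fold changes were above 0 and 2 below (median 0.04). Within the Gata5-/- pools the sum was highest in replicate 1 (13550 CPM) and lowest in replicate 4 (11030 CPM), the same pools as for the matrix mean. Smooth muscle genes went the other way (4929 to 6679, 4581 to 4970 and 3340 to 4467 CPM, r = -0.63, centred -0.41). In the Gata5-/- pools against wildtype 3 of 7 were called lower in edgeR's test: Mylk (log2 fold change -0.75, adjusted p = 0.00861), Myh11 (-0.75, adjusted p = 0.0136) and Cnn1 (-0.81, adjusted p = 0.0365). Cardiomyocyte genes summed to 24150 to 52640, 30000 to 57130 and 39700 to 56790 CPM (11 genes, 0 called, r = -0.31, centred -0.59). Atrial genes summed to 142.7 to 687.5, 67.93 to 495.9 and 67.44 to 291.5 CPM (5 genes, 0 called, r = -0.61, centred -0.44). In the endothelial, macrophage, adipocyte, epicardial, airway, T cell and erythroid lists 0 genes were called, and r lay between -0.41 (adipocyte) and 0.24 (airway). Centred, r lay between -0.58 (adipocyte) and 0.49 (T cell), with -0.43 for endothelial and -0.42 for macrophage genes. The adipocyte sum (225 to 382 CPM) was mostly Fabp4 (210 to 366 CPM before TMM scaling), while Adipoq and Cidec were each at 0 in 4 pools. The airway sum was only 0 to 11.7 CPM and the T cell sum 0.33 to 24.74 CPM. The part of these cells in the members' levels was not tested.

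Genes that act beside the members did not pass the test. Of 20 genes of collagen maturation, all 20 were tested and 0 called in edgeR's test in any comparison, with 10 log2 fold changes above 0 and 10 below in the Gata5-/- pools against wildtype and 3 at an unadjusted p under 0.05. These 3 were Pcolce2, an enhancer of procollagen cleavage (-0.69, adjusted p = 0.839), Adamts2, a procollagen protease (-0.27, adjusted p = 0.84), and Mia3, needed for collagen export from the endoplasmic reticulum (-0.42, adjusted p = 0.884), all on the lower side. Pcolce2 (12 CPM) and Mia3 (79.7 CPM) were lowest in Gata5-/- replicate 3, a library that stood apart. Of the paralogs of the members, 13 of 15 were tested and 0 called, with Vcan, the versican gene and relative of Acan, at 576 CPM in wildtype and 673 CPM in Gata5-/- pools (log2 fold change 0.22, adjusted p = 0.996), and Matn2 at -0.34 (adjusted p = 0.872). Of the other cartilage matrix genes, 0 of 18 were called and 12 were above 0 (median 0.11), with Hapln1, the link protein that fixes aggrecan to hyaluronan, at 0.53 (SE 0.27, adjusted p = 0.96). All 7 tendon and ligament genes were tested and 0 called (median 0.3).

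Hypertrophic and bone genes were low, and 8 of 13 were tested with 0 called in edgeR's test and 0 at an unadjusted p under 0.05. Their median log2 fold change in the Gata5-/- pools against wildtype was 0.72, above that of all genes, but it came from few counts. Spp1, the osteopontin gene, was at 7.91, 6.09, 14.8 and 2.77 CPM in the Gata5-/- pools and at 2.6, 1.88, 5.59 and 4.41 CPM in wildtype (log2 fold change 1.12, SE 0.63, adjusted p = 1). Sp7, the osteoblast factor osterix, reached 10.4 CPM in Gata5-/- replicate 3 and 0 in replicate 2, with 3.43 CPM in wildtype replicate 1. The high value of each was thus in the library with the most genes at 0.

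Promoter sequences were looked up to show what lies in front of the members that varied together. RefSeq entries on GRCm38.p6 (an older build than the authors' GRCm39) were found for 6 of 10 members, with 8 start sites, and those of Col2a1, Col9a3, Comp and Sox9 were not used here. The 250 bases before the start were searched on both strands. For SOX factors the letters were ACAAAG, with ACAATG as the other form. For GATA factors they were AGATAA, with TGATAA as the other form. TGGGAA was taken for RBPJ, the DNA-binding partner of Notch, and TATAAA for the TATA box. No matches in the windows of members overlapped each other. The 4 windows printed are 3 of the genes that followed Col2a1 (Col9a1, Matn4 and Col11a1) and Col11a2, which was close to Col9a3. Each is written 5′ to 3′ on the strand of the gene, with matches to the SOX, GATA or RBPJ letters in capitals.
Col9a1 start 1, chr1:24177360-24177609, plus strand: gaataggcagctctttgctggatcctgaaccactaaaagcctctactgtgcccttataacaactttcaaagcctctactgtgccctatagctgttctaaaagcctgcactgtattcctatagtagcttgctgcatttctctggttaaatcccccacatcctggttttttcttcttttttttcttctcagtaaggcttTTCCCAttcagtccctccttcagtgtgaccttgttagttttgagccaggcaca
Matn4 start 1, chr2:164405161-164405410, minus strand: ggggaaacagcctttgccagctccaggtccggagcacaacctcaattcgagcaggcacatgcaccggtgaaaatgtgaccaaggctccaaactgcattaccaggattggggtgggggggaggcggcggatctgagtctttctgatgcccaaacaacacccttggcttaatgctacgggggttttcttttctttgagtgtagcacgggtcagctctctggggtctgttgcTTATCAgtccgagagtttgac
Col11a1, chr3:114030290-114030539, plus strand: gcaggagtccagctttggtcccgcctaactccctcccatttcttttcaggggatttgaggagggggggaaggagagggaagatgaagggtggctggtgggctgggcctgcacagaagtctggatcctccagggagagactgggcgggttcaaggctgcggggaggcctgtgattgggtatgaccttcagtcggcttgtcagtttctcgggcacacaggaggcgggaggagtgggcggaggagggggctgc
Col11a2, chr17:34038888-34039137, plus strand: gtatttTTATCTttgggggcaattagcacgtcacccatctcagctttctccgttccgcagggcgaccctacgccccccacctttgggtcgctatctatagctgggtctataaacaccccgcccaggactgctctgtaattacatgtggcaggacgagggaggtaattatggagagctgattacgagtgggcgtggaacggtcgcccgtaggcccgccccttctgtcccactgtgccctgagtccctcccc
The Col9a1 window holds TGGGAA on the minus strand, 53 to 48 bases upstream of the start. That of Matn4 holds TGATAA on the minus strand 21 to 16 bases upstream, and that of Col11a2 holds AGATAA on the minus strand 244 to 239 bases upstream and TATAAA 143 to 138 bases upstream. The Col11a1 window holds none of the letters searched. Over the 8 windows of members, GATA letters were in 2, RBPJ letters in 3, TATAAA in 1 and SOX letters in 0. Among 32851 mouse promoters of the same length the shares were 16.6%, 21.6%, 12.4% and 25.2%. Their GC content was 43.6% for Col9a1 start 1, 54.4% for Matn4 start 1, 62.4% for Col11a1 and 57.6% for Col11a2, beside a median of 52.4% over all promoters. These matches describe letters and are neither sites nor causes of the levels above.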

How the data were processed

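Poly-A RNA of 12 pools of 3 aortic valves was sequenced. Per the submitters' processing notes, Trim Galore, STAR 2.7.10b, DESeq2 1.34.0 and build GRCm39 were used. Counting tool, annotation release and strand setting: not given in the sources used here. Raw counts of 20620 genes were deposited by the authors as whole numbers with no normalization. They also deposited a table with a mean normalized signal, log2 fold changes, their standard error and Wald score, and p-values. It names no comparison, and its log2 fold changes match a DESeq2 refit of Notch1+/-;Gata5-/- against wildtype (largest absolute difference 0.000166). It gave the symbols of 13959 genes, and GENCODE M21 gave 6077 more.

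In R 4.3.3, edgeR 4.0.16 (filterByExpr, TMM, robust quasi-likelihood F test, group term, all 12 libraries) was fitted to 19346 genes, with Benjamini-Hochberg adjustment over all of them and calls at an adjusted p under 0.05. CPM are TMM-scaled, and log2 CPM has a prior count of 1. Each member had a two-sided exact permutation test as well, over 35 splits (smallest possible p 0.0286). Lengths are the union of all GENCODE M21 exons of a gene, and GC content is that of its longest transcript. On simulated counts for Notch1+/-;Gata5-/- against wildtype (19346 genes), the test recovered 32 of 100 genes changed by 2-fold and 56 of 100 changed by 4-fold, with 4 false calls.

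The 10 members and the 20 other gene lists were chosen with earlier results of these data known. The result of 1 marker list is not reported here. Named genes are all members, the 3 genes of each list with the smallest p in Notch1+/-;Gata5-/- against wildtype and any called, the 6 genes most alike in pattern, and Notch1 and Gata5. Other genes named in the text were picked after their values were seen. Alternatives were DESeq2 1.42.0, limma-voom 3.58.1, other normalizations and filters, a replicate block, and libraries left out.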

Additional observations from a re-analysis of the deposited data

Results flagged for a closer look

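In the Notch1+/-;Gata5+/- group, replicate 1 lay far from the other 3 pools for 2 members. Its Col11a2 level was 165 CPM, where the others were at 87.4 to 94.9 CPM, and its Comp level was 92 CPM, where the others were at 52.7 to 56.8 CPM. Both gaps exceeded Dixon's critical value for 4 samples, as a share of the group's range. These were 2 of 30 pairs of member and group examined, and chance gives about 1 in 20. Without this pool the log2 fold change against wildtype was 0.07 for Col11a2 and 0.49 for Comp.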

How the results depend on the processing

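The number of members called stayed at 0 in all 3 comparisons under all alternatives run: DESeq2, limma-voom, RLE and upper quartile normalization, no filter, a stricter filter, only the 8 libraries compared, a replicate block, each library left out, and both libraries that stand apart left out. Of the members' fold changes under these alternatives, 487 kept their direction and 23 turned, each from a value between -0.16 and 0.26. The number of genes called over all genes tested was less stable. For Notch1+/-;Gata5-/- against wildtype it was 5, with 49 by DESeq2, 0 with only the 8 libraries compared, 2 without the libraries that stand apart, and 2 to 21 with 1 library left out (2 without wildtype replicate 2, 3 without Notch1+/-;Gata5-/- replicate 1, 21 without its replicate 4). For Notch1+/-;Gata5+/- against wildtype it was 0, with 8 by DESeq2. Between the mutant groups it was 0, with 13 by DESeq2, 2 without the libraries that stand apart, and 0 to 1 with 1 library left out.

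The fold changes that turned were these. Acan in Notch1+/-;Gata5+/- against wildtype (-0.03) was 0.01 by limma-voom, 0.09 without the libraries that stand apart, and ran from -0.18 to 0.12 with 1 library left out. Sox9 in Notch1+/-;Gata5-/- against wildtype (-0.02) was 0.00 by DESeq2 and by RLE normalization, 0.11 without the libraries that stand apart, and -0.19 to 0.20 with 1 left out. In the same comparison Col11a2 (0.18) ran from -0.12 to 0.43. Between the mutant groups, without the libraries that stand apart, Col11a2 (-0.16) was 0.09 and Col9a3 (-0.16) was 0.17, and Col9a2 (-0.09) was 0.00 by limma-voom. With 1 library left out there, Col11a2 ran from -0.46 to 0.13, Col9a3 from -0.67 to 0.17, Col9a2 from -0.29 to 0.13, Col9a1 (0.12) from -0.13 to 0.37 and Comp (0.26) from -0.06 to 0.53. The cause of these changes was not tested.

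With the replicate number as a block, the median log2 fold change of the members was 0.49, 0.46 and 0.10 in the 3 comparisons, 0 members were called, and 7 genes in all were called in Notch1+/-;Gata5-/- against wildtype. In that comparison 3 members (Col11a1, Matn4 and Comp) were higher at an unadjusted p under 0.05 with the block, beside 5 without it. The labels do not say whether equal numbers pair the pools. Correlations of deviations were -0.04 to 0.08 for equal numbers and -0.06 to 0.06 for different ones. These values do not settle whether pools of equal number share a litter, batch or day. At 4 pools per group and this spread, 2-fold changes were often missed in simulation, so a member that was not called is not shown to be unchanged.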
